A study of Mus musculus with 3 samples.

Results

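The annexin genes Anxa1, Anxa2, Anxa3, Anxa4, Anxa5, Anxa6, Anxa7 and Anxa11 are 8 of the 22535 genes counted in single-cell RNA libraries of mouse kidney cortex, and were chosen by name as members of 1 gene family. Their unique molecular identifiers (UMIs, each standing for 1 captured RNA molecule) were counted over barcodes with at least 200 genes and at most 50% mitochondrial UMIs. The mice were WT1CreERT2; Rosa26-tdT fl/+, in which tamoxifen makes cells that use the WT1 locus, and their descendants, carry the red fluorescent protein tdTomato (tdT). Since the WT1 promoter drives the Cre, the label marks podocytes and WT1+ parietal epithelial cells (PECs, the lining of the Bowman's capsule) in the uninjured kidney. The library named Sham came from mice given sham surgery, as a cell mixture enriched for tdT+ cells. A second library, IRI24h-TDN, mixed sorted tdT+ and tdT- cells 2 to 1, from mice whose kidneys had both undergone severe ischemia-reperfusion injury (IRI) 24 h earlier. The paper describes this mixing for the experiment as a whole, and its figure legend gives the ratio for IRI24h-TDN but not for Sham. The third, IRI24h-TD, was made of tdT+ cells without tdT- cells, also 24 h after IRI. Each library was made once, from the pooled cells of 4 kidneys, and the labels give no strain, age or sex. With 1 library per group no test between conditions was possible, so every interval given here is a 95% interval that covers counting error only, and no p-value is given.

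Annexins are cytoplasmic proteins that bind acidic phospholipids of membranes when calcium rises, through a conserved core repeated along the protein. They gather at injured plasma membrane, help vesicles to fuse and bend, and link membranes to the actin cortex. Anxa2 pairs with S100a10, and Anxa1 pairs with S100a11. Outside the cell, Anxa1 acts on formyl peptide receptors to end neutrophil recruitment, Anxa2 holds plasminogen and its activator Plat at the cell surface, and Anxa5 binds phosphatidylserine exposed by dying cells.

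On mm10, the build of the counts, the members are spread over 7 chromosomes, and Anxa7 and Anxa11 share one. By GENCODE M21, Anxa1 is at chr19:20373428-20390944 (minus strand), Anxa2 at chr9:69453620-69491795 (plus), Anxa3 at chr5:96793339-96845966 (plus) and Anxa4 at chr6:86736840-86793584 (minus). Anxa5 is at chr3:36448923-36475894 (minus), Anxa6 at chr11:54979108-55033445 (minus), Anxa7 at chr14:20455260-20480133 (minus) and Anxa11 at chr14:25842156-25886804 (plus). UMIs were counted per gene, so exons and isoforms are not separated.

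Anxa2 was at least 2-fold higher after IRI in 8 of 9 cell classes compared, and Anxa4, Anxa5 and Anxa6 in 1 each. The stretches ahead of the Anxa2 and Anxa5 genes are shown as examples. Each is the 100 bases before the outermost GENCODE M21 exon of the gene, taken from the RefSeq promoters of GRCm38.p6, which had entries for 6 of the 8 members. Capitals mark a match to TGAGTCA, the letters bound by AP-1, or to GCGTGGG on either strand, letters bound by Egr1 and Wt1. The same stretch of Anxa4, not shown, held neither match, and Anxa6 had no entry.
Anxa2, chr9:69453520-69453619, plus strand: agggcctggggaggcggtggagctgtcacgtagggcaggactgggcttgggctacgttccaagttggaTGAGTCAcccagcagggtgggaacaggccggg
Anxa5, chr3:36475895-36475994, minus strand: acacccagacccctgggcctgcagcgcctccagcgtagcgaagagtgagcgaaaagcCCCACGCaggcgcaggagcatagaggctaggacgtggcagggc
TGAGTCA was found on either strand in 5.20% of 32851 promoters of 300 bases, and GCGTGGG in 5.04%. These matches are letters in a window, and binding was not measured here.

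After filtering, 26760 of 30008 barcodes were kept. Sham gave 8047 cells, IRI24h-TDN 9024 and IRI24h-TD 9689, with median UMIs per cell of 7746, 9151 and 9529. Between 174 and 188 kept barcodes of a library also occurred in another one. Clusters were named by marker lists, so each class is written with the ending "-like". Unnamed cells made up 6.05%, 5.44% and 6.86% of the 3 libraries in that order. Podocyte-like cells were 18463 of the kept cells, PEC-like cells 1047 and proximal tubular epithelial (PTEC)-like cells 1202, with all 12, 12 and 14 of their markers detected. The sort sets the share of tdT+ cell types, so class sizes were not compared. In bulk sums over a class, fewer cells with an RNA and less of it per cell cannot be told apart.

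Anxa1, Anxa2 and Anxa3 had their highest pooled level in podocyte-like cells among the 11 classes with at least 50 cells. Levels are given as CPM, the UMIs of the gene per 1000000 UMIs of the same cells. Anxa1, the anti-inflammatory annexin, stood in podocyte-like cells at 477 CPM (470 to 484) in Sham, at 724 CPM (716 to 731) after IRI in IRI24h-TDN, and at 720 CPM (714 to 725) in IRI24h-TD. In PEC-like cells, the neighbours of podocytes in the glomerulus, Anxa1 was 40.1, 31.8 and 72.7 CPM, and in PTEC-like cells 9.92, 13.5 and 18.8 CPM. In every library Anxa1 was thus lower in PEC-like than in podocyte-like cells, with intervals far apart. Fibroblast-like cells held the next highest pooled Anxa1 level (461 CPM, 84 cells), followed by mesangial and mural-like cells (303 CPM).

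Anxa2, the partner of S100a10, reached 751, 1082 and 1085 CPM in the podocyte-like cells of the 3 libraries in the same order. Its pooled order was podocyte-like (1011 CPM), endothelial-like (794 CPM) and PEC-like (701 CPM), and the ranges over libraries of these neighbours overlapped. These 3 classes had the same order in Sham, at 751, 370 and 292 CPM. In IRI24h-TDN, however, endothelial-like (1235 CPM) and PEC-like cells (1135 CPM) stood above podocyte-like cells, as did PEC-like cells of IRI24h-TD (1163 CPM). Anxa3, an annexin implicated in endothelial migration, measured 374, 572 and 603 CPM in podocyte-like cells, ahead of PEC-like cells with 205, 522 and 515 CPM, and the ranges over libraries of these classes overlapped. Among 13 podocyte-like clusters of at least 50 cells, Anxa1 ran from 439 to 1054 CPM and Anxa3 from 365 to 974 CPM. For both genes the highest cluster was the one led by Mmp10, Angptl7 and Col5a3.

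The other members peaked elsewhere. Anxa4, an annexin of epithelia, was highest in intercalated-like cells, the acid-base transporting cells of the collecting duct, with 316 CPM (293 to 341) in Sham and 278 CPM (263 to 293) in IRI24h-TDN. That was 1.62-fold above podocyte-like cells in the pooled libraries, and the ranges over libraries did not overlap. Anxa5, the phosphatidylserine binder, was highest in PEC-like cells with 643, 719 and 819 CPM in Sham, IRI24h-TDN and IRI24h-TD. Next in the pooled libraries were monocytic-like cells with 370 CPM in Sham and 650 CPM in IRI24h-TDN. In Sham alone, fibroblast-like (536 CPM, 40 cells), intercalated-like (402 CPM) and endothelial-like cells (386 CPM) stood above them. The ranges over libraries of PEC-like and monocytic-like cells overlapped, since Sham PEC-like cells (643 CPM) lay below IRI24h-TDN monocytic-like cells (650 CPM). Within Sham and within IRI24h-TDN, PEC-like cells stood above monocytic-like cells. Within PEC-like cells, Anxa5 was highest in the cluster led by Wnt16, Adgrg6 and Osr2 (1045 CPM, against 593 and 542 CPM in the other two).

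Anxa6, which has a doubled annexin core, was highest in mesangial and mural-like cells (291 CPM pooled) and in connecting tubule and principal-like cells (279 CPM), which did not differ beyond the range over libraries. The 49 lymphocyte-like cells, below the minimum of 50 cells, held a still higher level (470 CPM, 370 to 588). Podocyte-like cells, at 49.7, 69.8 and 65.0 CPM in the 3 libraries, were among the lowest classes for Anxa6. Anxa7, which takes part in the fusion of secretory granules, had the narrowest span, with 232 CPM in endothelial-like and 99.0 CPM in monocytic-like cells at its ends. Anxa11, an adaptor of RNA granules on lysosomes, was barely counted: 174 UMIs in 147 of 26760 cells, of which 79, 66 and 29 UMIs belonged to the 3 libraries. It had under 50 UMIs over both libraries in every class and was left out of the comparisons. Of the other annexins, Anxa9 had 390 UMIs, Anxa8 had 55 and Anxa10 had 2.

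**Figure D1:**
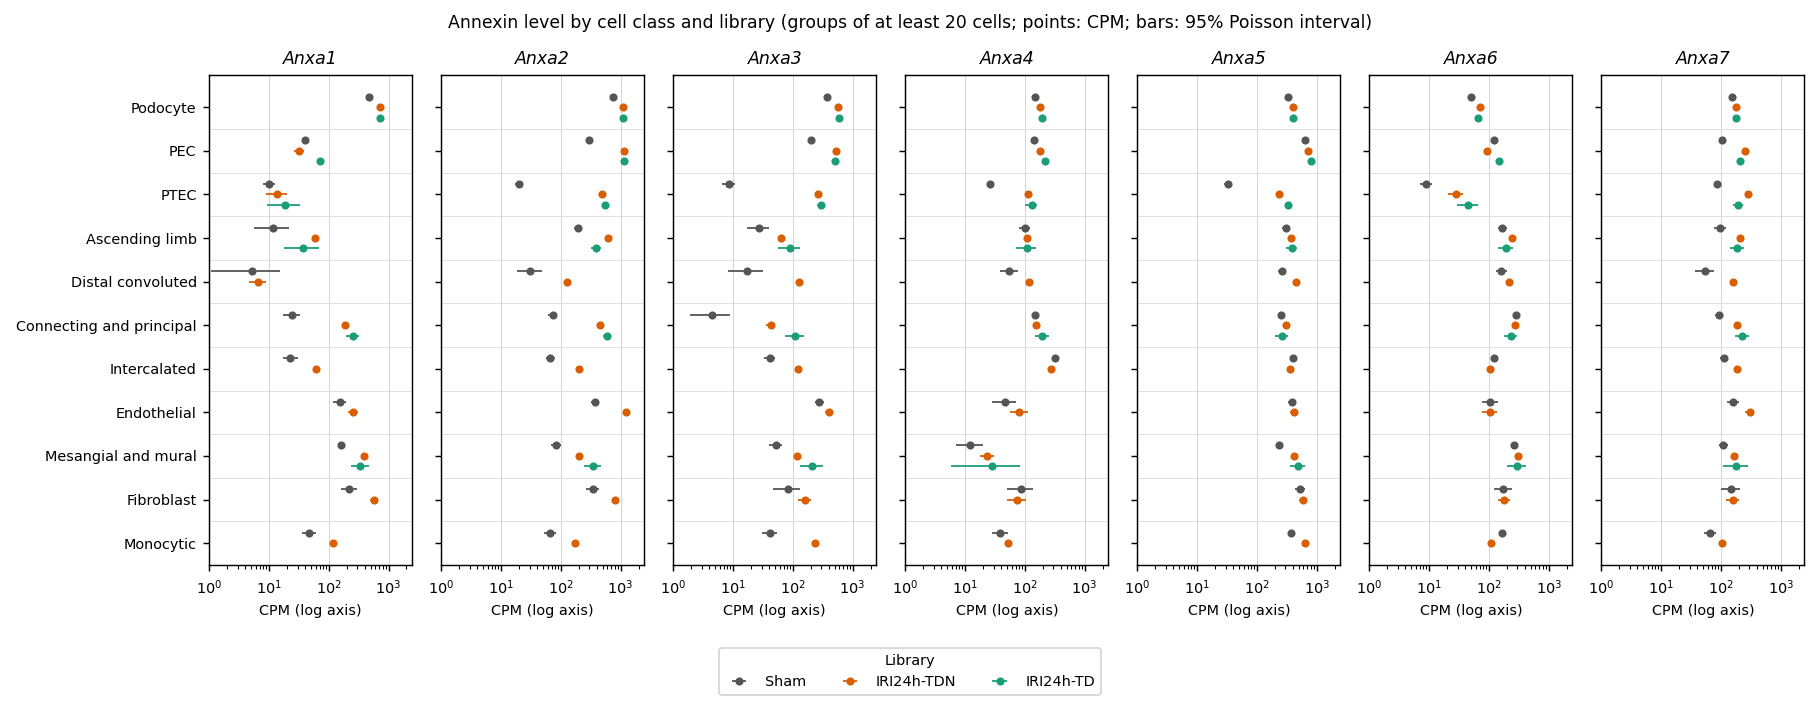
Level of 7 annexin genes (CPM, log axis) in each cell class and library with at least 20 cells; points are CPM of summed UMIs, bars their 95% Poisson intervals, colours the libraries. Anxa1, Anxa2 and Anxa3 of Sham PTEC-like cells lie at 9.92, 20.2 and 8.41 CPM, far below podocyte-like cells at 477, 751 and 374 CPM.

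The comparison of IRI24h-TDN with Sham, both labelled as mixtures enriched for tdT+ cells, asked how the annexins differed after injury within each cell class. Of 63 pairs of a member and a class, 26 were at least 2-fold higher in IRI24h-TDN and 0 were at least 2-fold lower. Among all genes tested, 4.1% to 15.6% were higher by that much and 3.19% to 12.6% lower, depending on the class. The intervals lay above 0 on the log2 scale in 50 pairs and below 0 in 5. By member, Anxa2 was at least 2-fold higher in 8 of 9 classes, Anxa3 in 7, Anxa1 in 5, Anxa7 in 3, and Anxa4, Anxa5 and Anxa6 in 1 each.

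PTEC-like cells, which reabsorb most of the filtrate and are the main site of ischemic damage, had 6 of 7 members at least 2-fold higher, where 13.6% of 9533 genes tested were higher by that much and 12.6% lower. Their Anxa2 level was 20.2 CPM (17.2 to 23.6) in Sham, against 482 CPM (451 to 514) in IRI24h-TDN and, in IRI24h-TD, 547 CPM (489 to 610). IRI24h-TDN was 23.8-fold above Sham (log2 fold change 4.57, 4.33 to 4.83). Of the 68 IRI24h-TD cells, 26 lay in the cluster led by Kap, Slco1a1 and Slc7a13, where their PEC markers summed to 6343 CPM, their PTEC markers to 2855 CPM and their podocyte markers to 2674 CPM. These cells thus went against their class name, and the IRI24h-TD values of the class rest in part on them. Anxa3 went from 8.41 CPM in Sham to 264 CPM in IRI24h-TDN, 31.4-fold, and was 294 CPM in IRI24h-TD. The same order of libraries was seen for Anxa5, at 32.4, 236 and 337 CPM, with a fold of 7.30 between the first pair. Anxa4 was 4.35-fold, Anxa7 3.22-fold and Anxa6 3.10-fold higher in IRI24h-TDN, whereas Anxa1 was 1.36-fold higher with an interval that included 0 on the log2 scale (-0.26 to 1.10).

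The median of all genes in PTEC-like cells was itself 0.11 higher on the log2 scale, and that of the 7 members 2.12. The comparison rests on 123 cells in IRI24h-TDN with a median of 12400 UMIs and 1011 cells in Sham with 6590. The cluster led by Kap, Slco1a1 and Slc7a13 held 627 of the Sham and 52 of the IRI24h-TDN cells, and there Anxa2 was 20.3 and 617 CPM. In the cluster led by Slc5a12, Slc13a1 and Gsta2, with 282 and 68 cells, Anxa2 was 17.6 and 408 CPM. Each of the 6 members was at least 2-fold higher in both clusters, whereas Anxa1 was 9.24 and 27.5 CPM in the first and 12.7 and 5.71 CPM in the second. Marker lists moved with these differences. The 14 PTEC markers summed to 65520 CPM in Sham and 13590 CPM in IRI24h-TDN PTEC-like cells, and the 12 PEC markers went from 120 to 1072 CPM in the first cluster and from 217 to 822 CPM in the second, and their part in the annexin differences was not tested.

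In PEC-like cells 3 of 7 members were at least 2-fold higher, where 5.43% of 10581 genes were higher and 12% lower. Anxa2 measured 292 CPM (279 to 306) in Sham, against 1135 CPM (1097 to 1174) in IRI24h-TDN and, in IRI24h-TD, 1163 CPM (1122 to 1205). The fold between the mixtures was 3.88 (log2 1.96, 1.87 to 2.04). The Anxa3 levels were 205, 522 and 515 CPM, a 2.55-fold difference, and those of Anxa7 were 106, 257 and 208 CPM, a 2.43-fold difference. Anxa5, the member with the highest PEC-like level, differed by 1.12-fold, and Anxa6 was 0.767-fold (log2 -0.38, -0.59 to -0.18).

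The size of these differences varied between PEC-like clusters. The cluster led by Wfdc16 and Gc held 372 Sham and 144 IRI24h-TDN cells and went from 247 to 1195 CPM for Anxa2 and from 89.4 to 495 CPM for Anxa3. The cluster led by Wnt16, Adgrg6 and Osr2, with 190 and 45 cells, went from 376 to 954 CPM for Anxa2 but from 468 to 718 CPM for Anxa3. In the smallest cluster, led by Clstn2, Bmp3 and Spock1, with 62 and 21 cells, Anxa2 was 381 and 628 CPM, under 2-fold. With other settings of the clustering Anxa3 and Anxa7 fell under 2-fold in PEC-like cells, down to a log2 fold change of 0.51 and 0.70, while Anxa2 kept at least 2-fold in each setting tried.

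In the 3 classes of later segments that could be compared, the members with the largest folds were Anxa1, Anxa2 and Anxa3. Ascending limb-like cells, which take up salt and dilute the urine, had 4 of 7 members at least 2-fold higher (background 8.07% of 8501 genes higher and 8.43% lower). Here Anxa1 stood at 11.7 CPM (10 UMIs) in Sham and 59.1 CPM in IRI24h-TDN, Anxa2 at 192 and 625 CPM, Anxa3 at 26.8 and 64.5 CPM, and Anxa7 at 96.8 and 206 CPM. Connecting tubule and principal-like cells had 3 of 7 higher (background 7.3% of 8414 genes higher and 5.86% lower), with Anxa1 at 24.1 CPM in Sham and 190 CPM in IRI24h-TDN (7.88-fold). Anxa2 was 73.5 and 458 CPM there, a 6.24-fold difference, and Anxa3 4.49 CPM (8 UMIs) and 42.6 CPM. Anxa7 lay just outside the limit, with 94.8 and 189 CPM and a log2 fold change of 0.998, and Anxa7 of ascending limb-like cells just inside it, at 1.09. Distal convoluted tubule-like cells, with 48 cells in Sham, were under the minimum for comparison. Their Anxa2 had 18 UMIs in Sham and was 4.11-fold higher in IRI24h-TDN, at 127 CPM. Anxa3 was 17.2 and 126 CPM, Anxa4 55.1 and 119 CPM, and Anxa7 53.4 and 163 CPM, whereas Anxa1 was 5.17 CPM (3 UMIs) and 6.45 CPM.

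Intercalated-like cells also had Anxa1 (22.9 and 61.1 CPM), Anxa2 (67.2 and 199 CPM) and Anxa3 (41.5 and 124 CPM) at least 2-fold higher in IRI24h-TDN (3 of 7, background 7.39% of 9092 genes higher and 4.49% lower). In contrast, Anxa4, Anxa5 and Anxa6 were slightly lower in intercalated-like cells, at 0.878-fold, 0.883-fold and 0.849-fold, each with an interval below 0 on the log2 scale. The 12 podocyte markers summed to 1806 CPM in Sham and 2487 CPM in IRI24h-TDN intercalated-like cells, with 0 of 12 at 0. Less a podocyte share level, described below, the log2 fold changes of Anxa1, Anxa2 and Anxa3 were 1.85, 1.79 and 1.71, against 1.42, 1.57 and 1.58 before. For Anxa1 that share level was 18.5 CPM in Sham and 45.3 CPM in IRI24h-TDN, most of the measured level. Its subtracted value thus rests on a small remainder of 48 UMIs in Sham. In the other 7 classes compared, outside podocyte-like cells, the sum was lower in IRI24h-TDN than in Sham, as in PTEC-like cells with 684 and 1043 CPM.

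Among the cells outside the epithelium, endothelial-like cells had Anxa2 at 370 CPM in Sham and 1235 CPM in IRI24h-TDN, 3.34-fold, as 1 of 7 members higher (background 5.05% of 3683 genes higher and 6.84% lower). Mesangial and mural-like cells, the contractile cells of the glomerulus and its vessels, had Anxa1 (160 and 391 CPM), Anxa2 (82.4 and 199 CPM) and Anxa3 (51.4 and 118 CPM) at least 2-fold higher (3 of 7, background 4.1% of 7397 genes higher and 3.19% lower). Anxa5 was 233 and 413 CPM there, 1.77-fold.

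Monocytic-like cells had 3 of 7 members at least 2-fold higher (background 15.6% of 8078 genes higher and 6.05% lower), on top of a median of all genes that was 0.28 higher on the log2 scale. Anxa3 went from 41.0 to 236 CPM, Anxa2 from 66.2 to 175 CPM and Anxa1 from 47.0 to 118 CPM. These 3 did not behave alike within clusters. The cluster led by Mmp13, Ccl4 and Tnf held 243 Sham and 641 IRI24h-TDN cells, and there Anxa3 was 43.5 and 244 CPM whereas Anxa2 was 43.5 and 45.0 CPM (log2 0.05, -0.43 to 0.55). A cluster led by Fn1, Ccl9 and Ccl6 held 99 IRI24h-TDN and 4 Sham cells, with Anxa2 at 841 CPM and Anxa1 at 480 CPM in all. Anxa6 was the member with the largest lower value, 168 CPM in Sham and 107 CPM in IRI24h-TDN (0.636-fold).

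Podocyte-like cells had 0 of 7 members at least 2-fold higher or lower, where 4.31% of 12022 genes were higher and 7.25% lower. All 7 nevertheless lay above Sham, with folds from 1.14 (Anxa7) to 1.53 (Anxa3) and intervals above 0 on the log2 scale. Ribosomal protein genes, a small part of the UMIs, took 24660 CPM in Sham and 10160 CPM in IRI24h-TDN podocyte-like cells. The part of this difference in the CPM of other genes was not tested. Sham podocyte-like cells lay mostly in the clusters led by Astn2, Tdrd5 and Wif1 and by Smyd1, R3hdml and Cdkn1c, and those after IRI mostly in the clusters led by Myl7, Rab3b and Tmc7 and by Smyd1, Cdkn1c and Gabra4. Anxa1 and Anxa2 were above Sham in each of the 12 podocyte-like clusters with at least 20 cells in both libraries, and Anxa3 in 11.

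**Figure D2:**
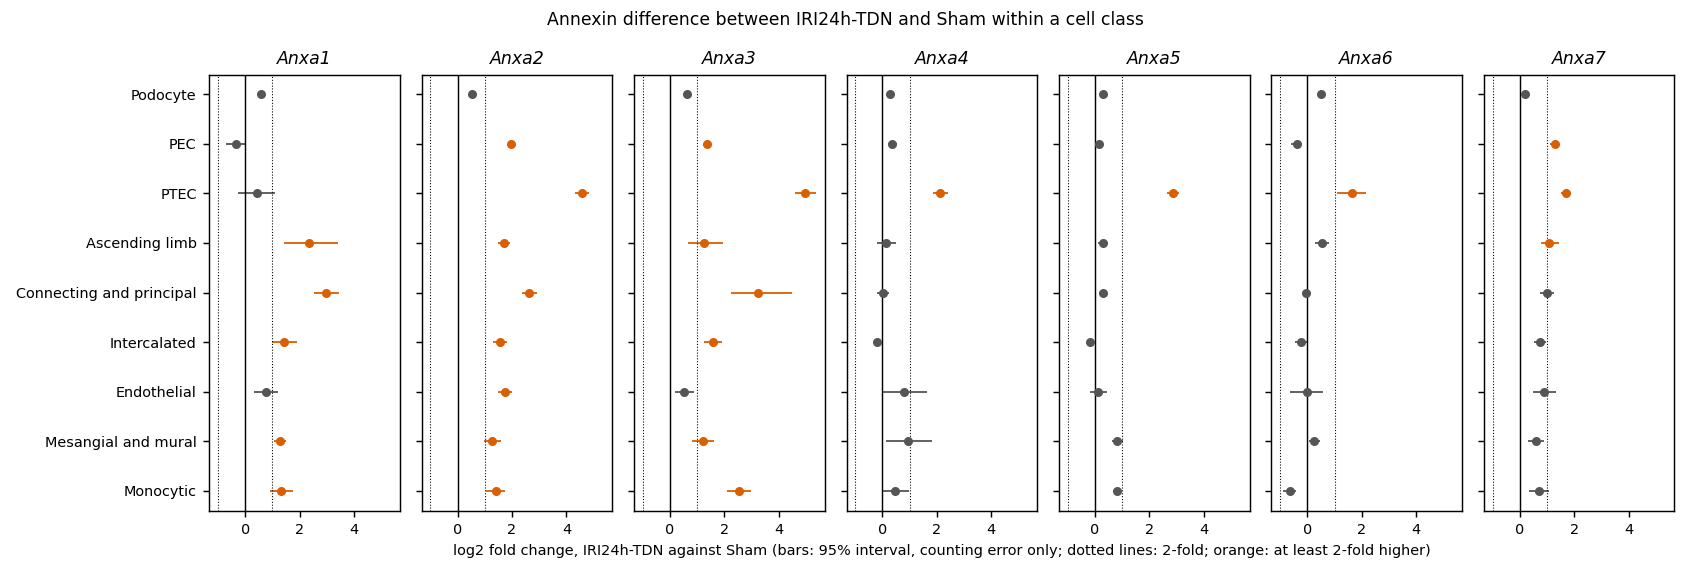
Difference between IRI24h-TDN and Sham for 7 annexin genes in 9 cell classes, as log2 fold change of CPM with 95% intervals; orange points are at least 2-fold higher and dotted lines mark 2-fold. Anxa2 is orange in 8 classes and Anxa3 in 7, while podocyte-like cells have 0 orange points.

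**Figure D3:**
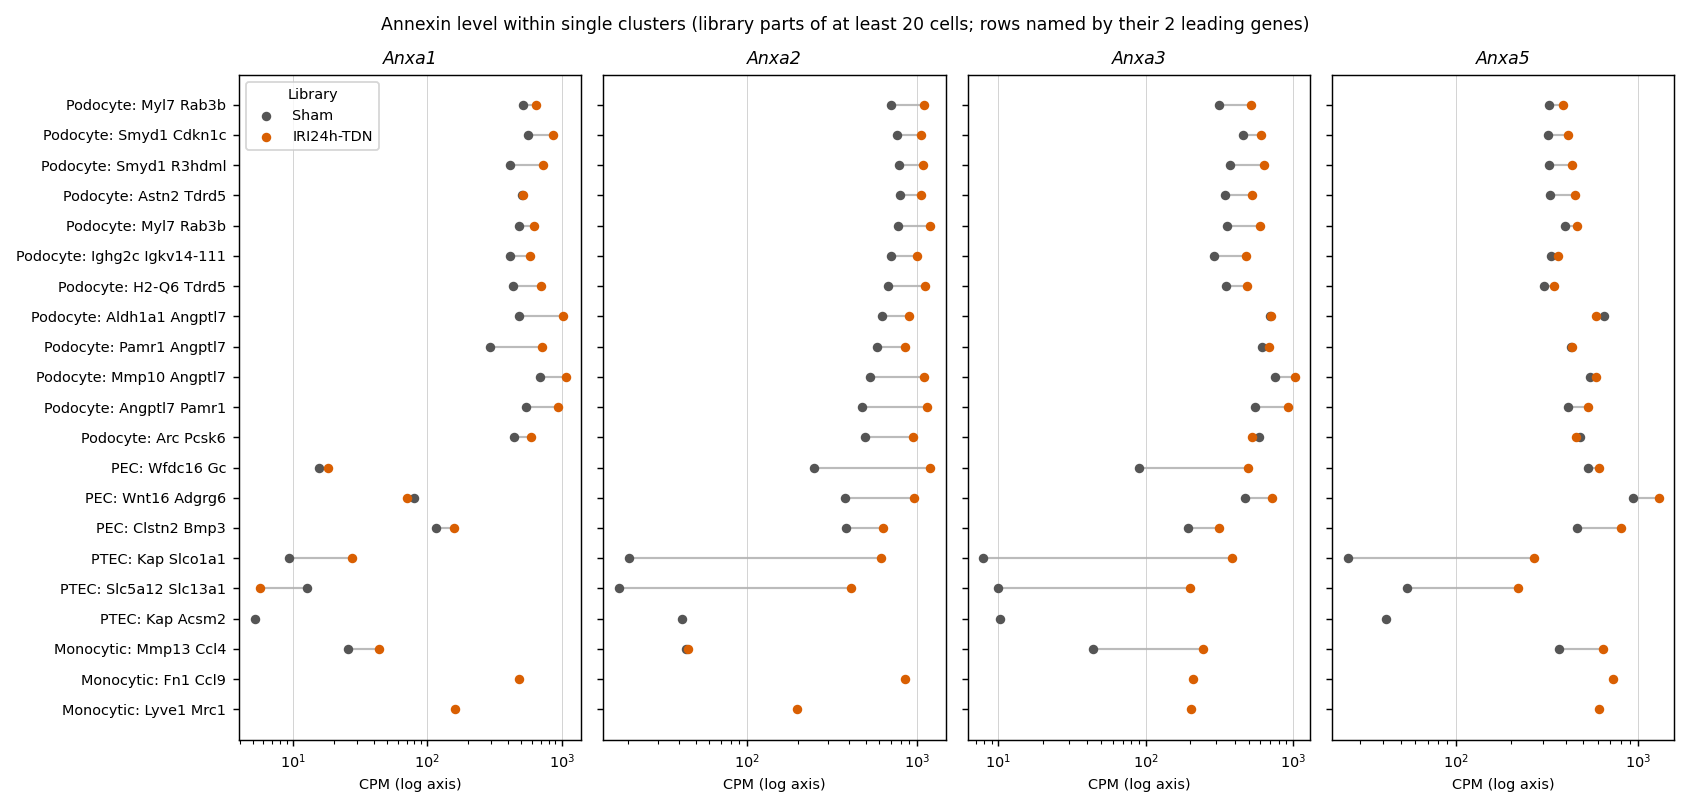
Levels of Anxa1, Anxa2, Anxa3 and Anxa5 (CPM, log axis) within single clusters of podocyte-like, PEC-like, PTEC-like and monocytic-like cells, named by their 2 leading genes; dark grey points are Sham, orange points IRI24h-TDN, points are shown for at least 20 cells, and a line joins both libraries of a cluster. In the PTEC-like cluster led by Kap, Slco1a1 and Slc7a13 the line runs from 20.3 to 617 CPM for Anxa2 and from 7.90 to 387 CPM for Anxa3, while in the monocytic-like cluster led by Mmp13, Ccl4 and Tnf the Anxa2 points nearly coincide (43.5 and 45.0 CPM).

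Since podocytes were the most abundant cells and carry Anxa1, Anxa2 and Anxa3, the levels elsewhere were set beside a podocyte share level. This is the podocyte-like CPM of the gene times the median, over the 12 podocyte markers, of a marker's CPM in the class relative to podocyte-like cells. In Sham PTEC-like cells the median marker stood at 2.06% of its podocyte-like level, which gave 9.85 CPM for Anxa1, 15.5 CPM for Anxa2 and 7.73 CPM for Anxa3. The measured levels were 1.01, 1.30 and 1.09 times these values. So the Sham PTEC-like levels of these 3 genes were close to those of podocyte-marker RNA in the same cells. In IRI24h-TDN the measured levels were 1.39 times the share level for Anxa1, 33.3 times for Anxa2 and 34.6 times for Anxa3. Anxa1 of PEC-like cells was 2.39, 2.01 and 1.91 times the share level in Sham, IRI24h-TDN and IRI24h-TD. Intercalated-like cells were also near it, with Anxa1 at 1.24 and 1.35, Anxa2 at 2.31 and 2.94 and Anxa3 at 2.86 and 3.46 times in Sham and IRI24h-TDN. Connecting tubule and principal-like Anxa3 in Sham lay below it, at 0.736 times. So did Anxa1 of PTEC-like cells in IRI24h-TD (0.618 times) and of distal convoluted tubule-like cells in IRI24h-TDN (0.921 times). Ascending limb-like Anxa1 was 1.42 times the share level in Sham, from 10 UMIs, and 7.84 times in IRI24h-TDN. The subtraction of the share level was chosen after the data were seen, and it raises a fold wherever the share level changed by less than the gene did.

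**Figure D4:**
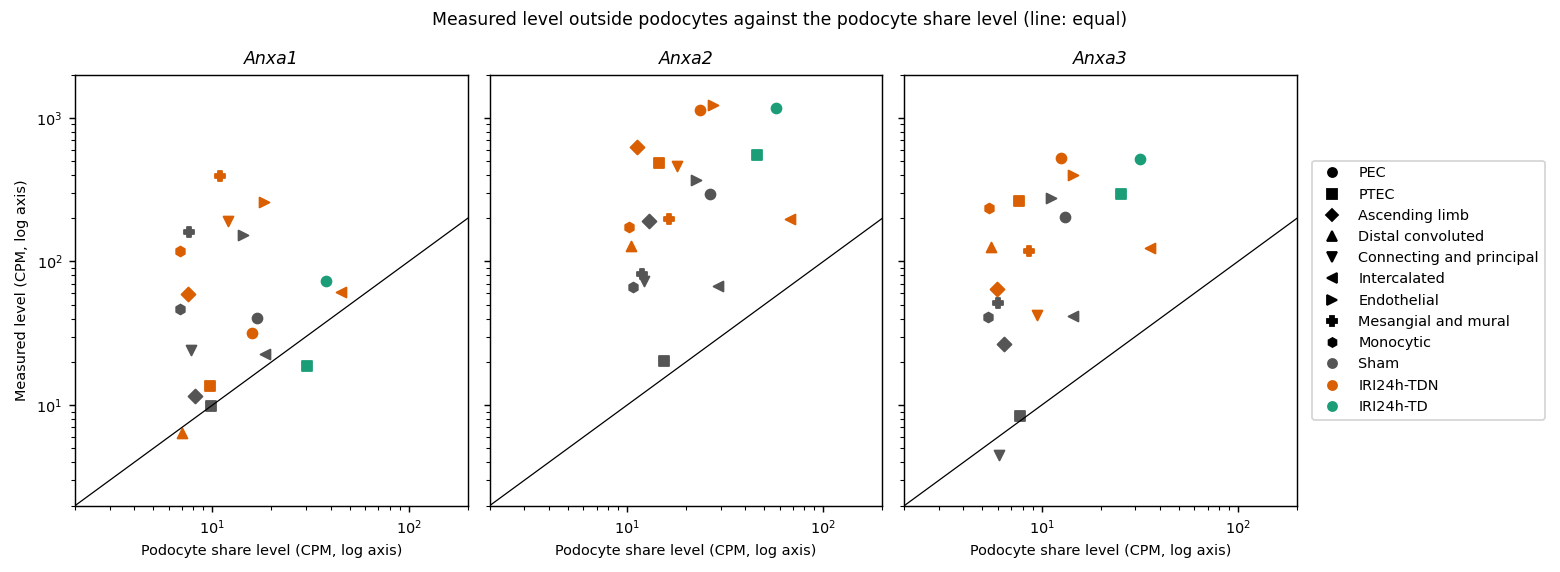
Measured level of Anxa1, Anxa2 and Anxa3 outside podocyte-like cells (CPM, log axis) against the podocyte share level (CPM, log axis); symbols are classes, colours libraries, and the line marks equal values. Sham PTEC-like cells (dark grey squares) lie on or near the line for the 3 genes, and IRI24h-TDN PTEC-like cells lie 33.3-fold above it for Anxa2.

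The comparison of IRI24h-TD with IRI24h-TDN asked how tdT+ cells alone differed from the mixture after the same injury, and it shares the IRI24h-TDN library with the comparison above. Of 20 pairs in podocyte-like, PEC-like and PTEC-like cells, 1 was at least 2-fold higher and 0 were lower. In podocyte-like cells 0 of 7 members were higher (background 0.14% of 12128 genes higher and 1.47% lower), and folds lay between 0.930 (Anxa6) and 1.08 (Anxa4). The pair that passed was Anxa1 of PEC-like cells (1 of 7, background 1.84% of 9293 genes higher and 1.47% lower), with 31.8 CPM from 95 UMIs in IRI24h-TDN and 72.7 CPM from 191 UMIs in IRI24h-TD, 2.28-fold. The 12 podocyte markers of those cells summed to 822 and 1955 CPM in the same order, with 0 of 12 at 0. Less the podocyte share level the log2 fold change was 1.12, against 1.19 before. With classes set from the own markers of each cell the log2 fold change of Anxa1 was -0.096. PTEC-like cells had 0 of 6 members higher (background 2.06% of 6326 genes higher and 2.07% lower), and Anxa7 was the lowest of them at 0.678-fold. The 68 PTEC-like cells of IRI24h-TD had a median of 2344 UMIs against 12400 in IRI24h-TDN, and a podocyte marker sum of 1692 against 684 CPM, whose part was not tested.

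Havcr1, which encodes the injury marker Kim1, was used to split PEC-like and PTEC-like cells after thinning to 2400 UMIs. Cells with fewer than 2400 UMIs were left out of this split. IRI24h-TDN was the library with at least 20 cells on each side. In PTEC-like cells, 87 with Havcr1 and 31 without, Anxa2 was 498 and 242 CPM and Anxa5 311 and 121 CPM, 2.06-fold and 2.57-fold higher with Havcr1. The intervals on the log2 scale were 0.311 to 1.852 and 0.351 to 2.555. PEC-like cells, 36 and 170, went the other way for Anxa5, with 451 CPM with Havcr1 and 939 CPM without (0.481-fold, log2 interval -1.571 to -0.579). The clusters differed in both genes, so that the split was also one between clusters. In IRI24h-TDN the cluster led by Wfdc16 and Gc had Havcr1 at 1517 CPM and Anxa5 at 606 CPM, and the cluster led by Wnt16, Adgrg6 and Osr2 had 2.19 and 1293 CPM. These values rest on few UMIs, 18 and 9 for Anxa2 and Anxa5 in PTEC-like cells without Havcr1, and before thinning the PEC-like cells with Havcr1 had a median of 24851 UMIs against 11162. None of the 3 differences was at least 2-fold in every setting tried, since Anxa5 fell out in both classes with counts as deposited, and Anxa2 when the top 6% of doublet scores were left out. No other member was 2-fold apart after thinning with an interval that left out equal levels. The share of all genes that far apart was not computed for this split.

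Partners and receptors of the annexins were described from a list of 12 genes, and the class backgrounds above apply to them too. In PTEC-like cells 7 of the 8 tested were at least 2-fold higher in IRI24h-TDN (background 13.6%), with a median log2 fold change of 2.84. In podocyte-like cells 3 of 8 were higher and 1 lower (background 4.31% and 7.25%). S100a6, a calcium-binding partner of Anxa2 and Anxa11, was at least 2-fold higher in 9 of 9 classes, and in PTEC-like cells it was 3.64 CPM in Sham and 1555 CPM in IRI24h-TDN. Plaur, the urokinase receptor, was higher in 7 of 7 classes and S100a4 in 4 of 4. Ahnak, a scaffold bound by the Anxa2 complex, was higher in 2 of 9, from 18.2 to 185 CPM in PTEC-like and from 536 to 1085 CPM in podocyte-like cells.

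Genes of plasma membrane repair, a list of 15, had 7 of 13 tested at least 2-fold higher in PTEC-like cells and 3 of 14 in PEC-like cells, where 13.6% and 5.43% of all genes were. In connecting tubule and principal-like cells 2 of 13 were higher and 1 lower (background 7.3% and 5.86%). Myof, a ferlin of membrane repair, was higher in 4 of 8 classes, with 14.9 and 175 CPM in Sham and IRI24h-TDN PTEC-like cells. Dysf, the dysferlin gene, was higher in 4 of 5 classes, with 26.8 and 151 CPM in ascending limb-like cells. The calpain genes Capn1 and Capn2 were higher in 1 of 9 classes each, PTEC-like cells. Podocyte-like cells had 1 of 14 repair genes higher, near the background of 4.31%, which was Dysf with 11 UMIs in Sham and 41 in IRI24h-TDN.

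Of the 6 cell-cycle genes, Mki67 and Top2a were the 2 tested in connecting tubule and principal-like cells. Both were at least 2-fold higher in IRI24h-TDN (background 7.3% of all genes), with log2 fold changes of 3.14 and 2.70. In monocytic-like cells 0 of 5 tested were higher or lower (background 15.6% and 6.05%). Of 5 erythroid genes 1 was tested, in podocyte-like cells, and was at least 2-fold lower in IRI24h-TDN (log2 fold change -7.03, background 7.25% lower).

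Across 22 groups of a class and a library with at least 50 cells, the annexins fell into different patterns, described by Pearson's r of log2(CPM + 10) with no p-value, since groups share libraries and depth. Anxa2 and Anxa3 were most alike (r = 0.83), followed by Anxa2 and Anxa7 (r = 0.80) and by Anxa3 and Anxa7 (r = 0.66). Anxa3 and Anxa6 had the most negative value (r = -0.28). Among 8052 genes, those most like Anxa1 were Ccdc82 (r = 0.91) and Myadm, and those most like Anxa2 were Anapc4 (r = 0.88), Mad2l2 and Mvp. Mvp, the major vault protein gene, was also the gene most like Anxa3 (r = 0.92). The nearest genes were Rala for Anxa4 (r = 0.91), Kdm1a for Anxa5 (r = 0.82), Pygb for Anxa6 (r = 0.89) and Cnih1 for Anxa7 (r = 0.94).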

How the data were processed

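For every library the authors deposited raw UMI counts by gene and barcode, with no normalization. The submitters' processing notes name CASAVA 1.8, UMI-tools, Seurat and the build mm10, and the counting software beyond these is not given in the sources used here. Members and gene lists were chosen with earlier results of these data known. Barcodes with fewer than 200 genes or over 50% mitochondrial UMIs were left out. From 2000 variable genes without annexins, 30 principal components were aligned over the libraries by an implementation of Harmony (theta 2) and clustered with leidenalg 0.10.2 (15 neighbours, resolution 1) in Python 3.11.15 with numpy 2.4.6, scipy 1.17.1, scikit-learn 1.9.0 and igraph 0.11.9.

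Clusters were named from marker lists. The limits of the naming rule and a limit on clusters with over 50% of cells in the top 6% of simulated-doublet scores were set after the data were seen. Those clusters stayed unnamed, and other cells with high doublet scores were kept. UMIs were summed per class and library and given as CPM, with exact Poisson and exact conditional binomial intervals. Genes with at least 50 UMIs over both libraries of a class of at least 50 cells in each were compared, and a fold of 2 counted as a difference. Named genes were the members, the 3 genes most like each, and up to 4 genes a list with at least a 2-fold difference. edgeR 4.0.16 in R 4.3.3 gave the TMM factors of an alternative scaling. On data simulated with counting error only, 97.5% of genes changed 2.5-fold were recovered among 12022 podocyte-like genes and 89.5% among 9533 PTEC-like genes. No spread between libraries or between cells was simulated for these shares. Alternatives covered barcode limits, doublets, shared barcodes, Harmony, classes, resolution, variable genes, thinning, scaling, filters and the fold. Protein sequences were not used here, and a few gene names are not reported here.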

Additional observations from a re-analysis of the deposited data

Results flagged for a closer look

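Differences between IRI24h-TDN and Sham ran in opposite directions between classes for 3 members, counting values whose interval left out 0. Anxa1 was also below 0 in PEC-like cells (log2 fold change -0.33), but with an interval that included 0. Anxa4 had a log2 fold change of 2.12 in PTEC-like and -0.19 in intercalated-like cells, 2.31 apart. Anxa5 had 2.87 and -0.18 in the same classes, 3.05 apart. Anxa6 had 1.63 in PTEC-like and -0.65 in monocytic-like cells, 2.28 apart. With 1 library per group these differences between classes were not tested.

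A cluster left without a name, led by Srd5a1, Rrm2 and Havcr1, held Anxa2 at 1681 CPM. Its 61 cells came from the 3 libraries as 6, 32 and 23, and its Anxa2 level was 1666 CPM in IRI24h-TDN and 1996 CPM in IRI24h-TD. Anxa5 was 685 CPM and Anxa1 34.7 CPM over its cells. These cells were in no comparison.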

How the results depend on the processing

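No paired analysis was possible because each group has 1 library. Over the other alternatives, the pairs at least 2-fold higher in IRI24h-TDN numbered 20 to 30, against 26, and a fold of 1.5 gave 38 higher and 1 lower. Of 513 recomputed values of the 26 pairs, 433 stayed within their counting interval and 80 moved past it, 0 of them to the other sign. Some of these values could not move, such as those with other UMI filters. Subtracting podocyte RNA (29 higher, some against a floor of 3 UMIs) and values within clusters were chosen after the data were seen. Within clusters 23 of the 26 remained. Ascending limb-like, connecting tubule and principal-like, intercalated-like, endothelial-like and mesangial and mural-like cells were 1 cluster each, so their values could not change there. The pairs lost were Anxa2 and Anxa1 of monocytic-like cells (0.05 and 0.78 on the log2 scale) and Anxa7 of PEC-like cells (0.99). Resolution 0.5 lost 5. For IRI24h-TD against IRI24h-TDN, 0 pairs were higher with at least 500 genes, at most 20% mitochondrial UMIs, no Harmony, classes from own markers or thinning (where Anxa1 of PEC-like cells had too few UMIs), and 3 at a fold of 1.5. The mean of per-cell CPM gave 1 higher and 1 lower, neither being Anxa1 of PEC-like cells, whose value reversed to -0.096 with classes from own markers. The cause was not tested. TMM moved the log2 scale by -0.21 in PTEC-like and 0.16 in ascending limb-like cells. Spearman's rho shared 8 of 21 like genes. Anxa6 was highest in lymphocyte-like cells in 7 settings and in connecting tubule and principal-like cells after thinning, and Anxa2 in PEC-like cells with own-marker classes. Depth limits Anxa11 and the levels of Anxa1 and Anxa3 under 10 CPM.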

Other observations

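Some cells outside the comparisons also carried annexins. The 29 neutrophil-like cells of Sham had Anxa1 at 876 CPM (691 to 1095) and Anxa2 at 1058 CPM (854 to 1296), with Anxa3 at 22.8 CPM from 2 UMIs. A cluster without a name led by Chil3, Saa3 and Ngp, with 84 of its 87 cells from IRI24h-TDN, had Anxa1 at 735 CPM and Anxa2 at 913 CPM. Fpr2, a receptor of Anxa1 named here after its values were seen, stood at 597 CPM over 33 neutrophil-like cells, 44.3 CPM in monocytic-like cells and 0.0687 CPM in podocyte-like cells.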
